A study of Mus musculus with 4 samples.

Results

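AP-1 is a family of dimeric transcription factors, and 10 of its genes are described here in mouse macrophages polarized in opposite ways: Batf, Batf2, Batf3, Jun, Junb, Jund, Fos, Fosb, Fosl2 and Atf3. They were listed by name, and their rows in the deposited count table were found by Ensembl gene ID. They are 10 of the 49315 genes in that table, and all 10 were among the 14656 genes that passed the filter on low counts.

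The cells were bone marrow-derived macrophages (BMDM) of Lyz2Cre+ mice, grown in medium with L-cell supernatant. Lyz2Cre places the Cre recombinase under the lysozyme 2 gene, which is active in myeloid cells; a floxed target gene is not named in the labels. On day 7 the M1 group (2 libraries) received LPS at 100 ng/ml with interferon gamma at 50 ng/ml for 24 h, and the M2 group (2 libraries) received IL-4 at 10 ng/ml with IL-13 at 10 ng/ml for 24 h. Part of the study also used the EGFR inhibitor erlotinib (1 uM), and whether these 4 libraries had it is left unsaid by their labels. Separate mice or cultures within a group are not stated either, so the p-values rest on library-to-library spread, which can be technical.

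AP-1 proteins carry a basic region that reads DNA and a leucine zipper through which they pair. JUN proteins can pair with each other or with FOS proteins, whereas FOS proteins need a JUN partner, and the dimers bind the AP-1 site or the related cAMP response element (CRE). BATF proteins lack the activation domain of FOS, pair with JUN proteins, and bind composite elements beside interferon regulatory factors (IRFs). In macrophages, AP-1 genes are among the first induced by LPS, and their dimers act on many cytokine genes. The libraries here sample a single time, 24 h after the stimuli were added.

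The 4 libraries held 28407982 to 34445668 counts in M1 and 26806370 to 39506242 in M2. Within a group the log-scale correlation of the libraries across genes was 0.994 in M1 and 0.996 in M2. Levels are given as CPM, read counts relative to the library total, scaled by the trimmed mean of M values (TMM), and a gene is called when edgeR's quasi-likelihood test gave a Benjamini-Hochberg adjusted p under 0.05 over all tested genes. The background of calls was high: 77.2% of tested genes were called, 37.5% higher in M1 and 39.7% lower in M1. The 8 macrophage markers summed to 5434 to 5673 CPM in M1 and 4619 to 4729 CPM in M2, with none under 1 CPM in all libraries. They moved both ways, with 6 called higher in M1 and 2 lower: Csf1r averaged 264 CPM in M1 and 1639 CPM in M2, Cd68 118 CPM in M1 and 1242 CPM in M2, and Fcgr1 578 ± 150 CPM in M1 and 21.5 ± 0.19 CPM in M2 (SD, n = 2 each). Lyz2 itself stood at 25.2 and 27.3 CPM in M1, against 6.51 and 6.88 CPM in M2 (log2 fold change 1.97 ± 0.10, SE). These are bulk samples, so fewer cells of a type and less RNA per cell cannot be told apart.

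The start-site regions of the members that differed by more than 2-fold are shown first, so that the letters around the starts of genes that moved in opposite directions can be compared. Sequences are from RefSeq on GRCm38.p6, each from 250 bases before to 50 bases after the RefSeq start, 5′ to 3′ on the gene's strand; capitals mark matches to the motifs searched. The table held 9 of the 10 members, and Batf2 has no sequence shown. Fos lies at chr12:85473640-85473939 on the plus strand, Jun at chr4:95052173-95052472 on the minus strand, Junb at chr8:84978699-84978998 on the minus strand, Batf at chr12:85686470-85686769 on the plus strand and Batf3 at chr1:191098164-191098463 on the plus strand.
Batf: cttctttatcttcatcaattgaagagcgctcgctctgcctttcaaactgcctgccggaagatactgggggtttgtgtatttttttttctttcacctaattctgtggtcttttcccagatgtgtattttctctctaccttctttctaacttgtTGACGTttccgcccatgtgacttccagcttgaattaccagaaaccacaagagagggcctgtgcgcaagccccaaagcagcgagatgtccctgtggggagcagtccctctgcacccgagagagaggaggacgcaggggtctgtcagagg
Batf3: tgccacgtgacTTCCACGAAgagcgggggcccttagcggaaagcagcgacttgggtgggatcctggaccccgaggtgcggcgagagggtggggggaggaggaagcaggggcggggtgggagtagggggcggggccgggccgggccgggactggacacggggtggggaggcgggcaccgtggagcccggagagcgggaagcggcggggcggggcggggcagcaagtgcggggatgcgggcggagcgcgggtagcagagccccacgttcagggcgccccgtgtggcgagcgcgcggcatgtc
Jun: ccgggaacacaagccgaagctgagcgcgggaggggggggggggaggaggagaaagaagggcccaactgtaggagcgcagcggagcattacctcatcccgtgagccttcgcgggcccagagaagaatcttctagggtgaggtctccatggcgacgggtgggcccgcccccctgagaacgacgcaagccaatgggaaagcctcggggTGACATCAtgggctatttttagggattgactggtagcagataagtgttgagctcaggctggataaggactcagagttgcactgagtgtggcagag
Junb: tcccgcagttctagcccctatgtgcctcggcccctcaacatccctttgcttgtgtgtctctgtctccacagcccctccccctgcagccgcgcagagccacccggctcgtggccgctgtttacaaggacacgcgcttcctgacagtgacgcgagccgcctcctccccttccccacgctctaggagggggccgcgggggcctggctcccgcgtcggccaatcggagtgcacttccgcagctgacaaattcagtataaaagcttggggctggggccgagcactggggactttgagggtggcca
Fos: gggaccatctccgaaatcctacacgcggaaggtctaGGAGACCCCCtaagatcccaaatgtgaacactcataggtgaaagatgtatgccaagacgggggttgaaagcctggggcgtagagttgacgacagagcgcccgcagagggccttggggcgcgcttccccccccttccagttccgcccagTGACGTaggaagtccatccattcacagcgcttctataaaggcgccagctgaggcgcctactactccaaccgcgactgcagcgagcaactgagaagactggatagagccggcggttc

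Both strands were searched for the AP-1 site TGANTCA, the CRE-type site TGACNTCA, the CRE core TGACGT, the interferon gamma-activated sequence TTCNNNGAA (GAS), the STAT6-type site, the interferon-stimulated response element core, the CArG box and the kappaB site. The CRE-type site and the CRE core overlap where a CRE is complete. Positions count from the start, with minus signs before it. In Jun, TGACATCA lies at positions -45 to -38, and a CRE-type site occurs in 8.83% of the 32851 promoters of the table. TGACGT lies at positions -98 to -93 in Batf and -66 to -61 in Fos, against 7.51% of all promoters with this core. In Fos a kappaB match also lies at positions -214 to -205 (8.46% of promoters), and in Batf3 the GAS match TTCCACGAA lies at positions -239 to -231 (8.3% of promoters). Junb holds none of these letters in its window, and TGANTCA, found in 7.81% of promoters, is in none of the 5 windows. Batf3's RefSeq start is 567 bases inside the GENCODE gene, so its window covers another stretch than the 5′-most annotated start. A match is a description of letters and was not tested as a binding site.

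Across the 10 genes, 3 were called higher in M1 (Batf, Batf2 and Junb) and 5 lower in M1 (Fos, Jun, Jund, Batf3 and Atf3). Fosb and Fosl2 were not called. Of all tested genes, 77.2% were called, 37.5% higher in M1 and 39.7% lower. A test of changes beyond 2-fold (edgeR's glmTreat) called 6 of the 10, the same 3 higher and Fos, Jun and Batf3 lower. In that test 33.0% of all tested genes were called. In 9 of the 10 the libraries of the groups did not overlap, where 88.5% of all tested genes did not overlap. The median log2 fold change of the members was -0.13, beside -0.04 over all tested genes, and the median size of the change, sign aside, was 1.47 beside 0.76. The BATF, JUN and FOS subfamilies each held genes that moved in opposite directions or that did not pass the test, so the groups are described gene by gene.

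**Figure D1:**
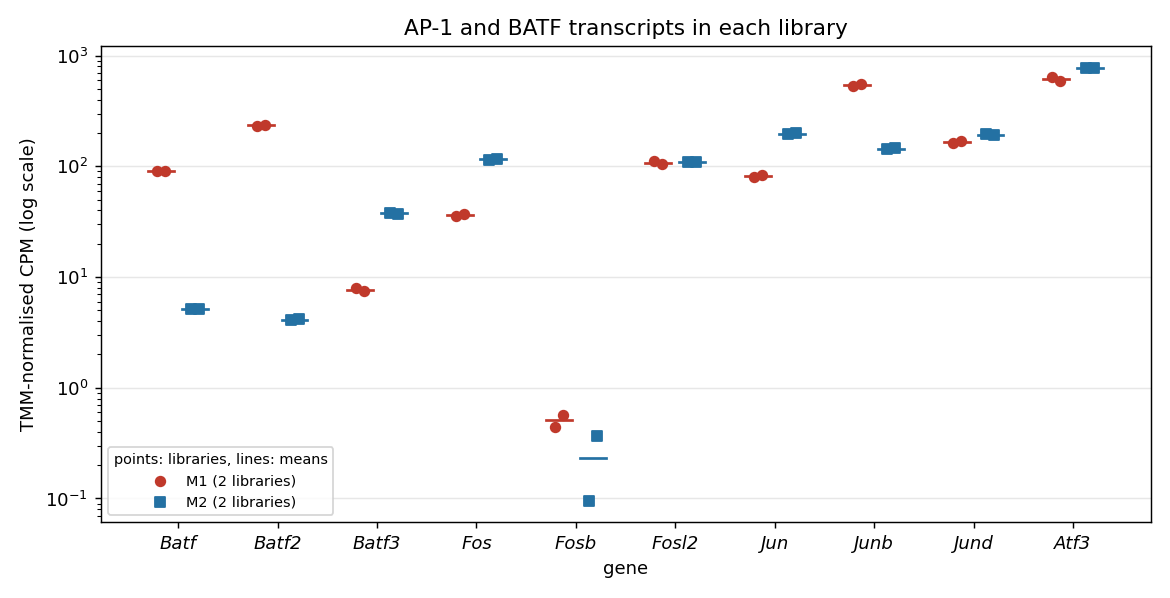
TMM-normalised CPM of the 10 genes on a log axis, 1 point per library (M1 circles, M2 squares, 2 libraries each) and lines at the group means. Batf and Batf2 sit far higher in M1, Batf3, Fos and Jun lower in M1, and the Fosb points spread most, from 0.10 to 0.37 CPM in M2.

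Batf and Batf2 were strongly higher in M1, and Batf3 was lower. Batf (chr12:85686669-85709087, plus strand), a factor known for its role with JUN proteins and IRFs in T helper and B cell differentiation, had 90.1 and 91.5 CPM in M1, against 5.20 and 5.10 CPM in M2. The M1 libraries were both high and differed from each other by little compared with the gap to M2. The difference was 17.6-fold (log2 fold change 4.14 ± 0.08, SE; edgeR, adjusted p = 5.54e-16). Batf2 (chr19:6140983-6172476, plus strand), an interferon-inducible member that works with IRF1 in macrophages, had 233 and 237 CPM in M1, against 4.08 and 4.14 CPM in M2. This was the widest gap among the 10 genes, 57.0-fold (log2 fold change 5.83 ± 0.08; edgeR, adjusted p = 2.2e-17).

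Batf3 (chr1:191097847-191108945, plus strand), needed for the development of type 1 conventional dendritic cells (cDC1), had 7.89 and 7.44 CPM in M1, against 38.2 and 37.5 CPM in M2. Every M2 library was above every M1 library, and the gene was 4.93-fold lower in M1 (log2 fold change -2.30 ± 0.09; edgeR, adjusted p = 1.56e-12). Within a library, where scaling between libraries has no part, ratios per kilobase of union exon length were taken. Batf had 12.97 and 13.97 times the counts per kilobase of Batf3 in M1, against 0.155 and 0.154 times in M2. The ratio of Batf2 to Batf was 1.44 and 1.45 in M1, against 0.438 and 0.453 in M2. Thus the BATF transcripts of M1 libraries were mostly Batf2 and Batf, and those of M2 libraries mostly Batf3.

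Since BATF genes are best known from lymphocytes and dendritic cells, the markers of those cells are given beside them. The 7 T cell markers summed to 2.24 to 2.30 CPM in M1 and 1.32 to 1.47 CPM in M2, and 6 of the 7 were under 1 CPM in all libraries. The 5 B cell markers summed to 2.058 to 2.764 CPM in M1 and 2.489 to 2.755 CPM in M2, with 3 of the 5 under 1 CPM in all libraries. The 4 NK cell markers summed to 5.16 to 6.17 CPM in M1 and 0.255 to 0.260 CPM in M2; Klrk1 carried this sum, at 6.07 and 5.16 CPM in M1, and the other 3 were under 1 CPM in all libraries. The part of these markers in the Batf and Batf2 differences was not tested. The 7 cDC1 markers summed to 142.6 to 143.7 CPM in M1 and 277.1 to 290.5 CPM in M2, and moved both ways, with 3 called higher and 3 lower in M1. Clec9a, a defining cDC1 receptor, was at 0.675 CPM in M1 and 0.172 CPM in M2, while Xcr1 was at 31.4 CPM in M1 and 0.075 CPM in M2 and Cadm1 at 58.4 CPM in M1 and 202 CPM in M2 (means, n = 2). The part of the cDC1 markers in the Batf3 difference was not tested.

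The JUN genes split, with Junb higher in M1, Jun lower and Jund slightly lower. Junb (chr8:84974484-84978718, minus strand), often the weaker activator of the family and an early LPS-induced gene, had 537 and 553 CPM in M1, against 143 and 147 CPM in M2. It was 3.76-fold higher in M1 (log2 fold change 1.91 ± 0.07; edgeR, adjusted p = 5.36e-13). Jun (chr4:95049034-95052222, minus strand, without introns), the member with the strongest activation domain, had 80.1 and 83.7 CPM in M1, against 196 and 198 CPM in M2. It was 2.41-fold lower in M1 (log2 fold change -1.27 ± 0.06; edgeR, adjusted p = 4.1e-11), and neither group's libraries came near the other's.

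Jund (chr8:70698949-70700616, plus strand, without introns), the most evenly expressed JUN gene across tissues, had 161 and 168 CPM in M1, against 195 and 192 CPM in M2. The groups did not overlap, and the difference was small (log2 fold change -0.23 ± 0.06; edgeR, adjusted p = 0.0029). Per kilobase within a library, Junb stood at 9.287 and 9.16 times Jun in M1, against 1.012 and 1.027 times Jun in M2. Junb was 2.416 and 2.385 times Jund in M1 and 0.532 and 0.555 times Jund in M2, so by union exon length Junb led the JUN genes in M1 and Jund led them in M2; by the longest coding length Jun led them in M2. The length used sets the size of such a ratio, but not how it differs between the groups. Counts of Jund may omit bases that it shares with another gene (described below), so its level per length may be too low.

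Of the FOS genes, Fos was lower in M1, Fosl2 stood near the same level in both groups, and Fosb was close to the limit of detection. Fos (chr12:85473890-85477273, plus strand), the classical immediate-early partner of JUN, had 35.5 and 37.4 CPM in M1, against 115 and 116 CPM in M2. Both M1 libraries lay far below both M2 libraries, by 3.17-fold (log2 fold change -1.67 ± 0.06; edgeR, adjusted p = 1.79e-12). Fosl2 (chr5:32135801-32157842, plus strand), which encodes the FOS-related protein FRA2, had 112 and 104 CPM in M1, against 110 and 111 CPM in M2. These libraries overlapped (log2 fold change -0.03 ± 0.06; edgeR, adjusted p = 0.701). Per kilobase, Fosl2 was 0.768 and 0.678 times Fos in M1, against 0.233 and 0.232 times Fos in M2; by the longest coding length Fosl2 ranked above Fos in both groups.

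Fosb (chr7:19302696-19310051, minus strand), a FOS gene known for its stable splice form in brain, was counted 13 and 14 times in M1, against 3 and 17 times in M2. The M2 libraries differed from each other by about as much as the group means, 0.507 CPM in M1 and 0.232 CPM in M2. It was not called (log2 fold change 0.97 ± 0.51; edgeR, adjusted p = 0.0998). Without M2 replicate 2 the log2 fold change was 2.33 (edgeR, adjusted p = 0.0111), and without M2 replicate 1 it was 0.43, so the size and the call depended on which M2 library was kept.

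Atf3 (chr1:191170296-191218039, minus strand), a stress-induced factor known to restrain LPS-induced cytokine genes, had 646 and 596 CPM in M1, against 770 and 781 CPM in M2. By union exon length it was the most abundant of the 10 genes in every library; by the longest transcript length Junb led in M1 library 2, with 30.0% of the 10 genes' sum against 29.46% for Atf3. The groups did not overlap, and Atf3 was 1.25-fold lower in M1 (log2 fold change -0.32 ± 0.07; edgeR, adjusted p = 6.67e-04).

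Markers of another cell type, the fibroblast, moved both ways. The 6 fibroblast markers summed to 110.5 to 118.8 CPM in M1 and 1137 to 1162 CPM in M2, with 4 lower and 2 higher in M1. Col1a1, a collagen chain, averaged 39.4 CPM in M1 and 554 CPM in M2. Dcn, 1 of the 2 that were higher in M1, averaged 15.0 CPM in M1 and 6.88 CPM in M2. None of the 6 was under 1 CPM in all libraries, and their part in the Fos and Jun differences was not tested.

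How the libraries are scaled bears on the small differences. TMM factors were 0.846 and 0.866 in M1, against 1.17 and 1.17 in M2, and scaling by library totals alone moved the median log2 fold change of all genes by -0.448, and upper-quartile scaling by -0.185. The share of calls that were higher in M1 was 48.6% under TMM, 39.2% under upper-quartile scaling and 28.1% under library totals. Fosl2 was then called lower in M1, with log2 fold changes of -0.21 under upper-quartile scaling (edgeR, adjusted p = 0.00384) and -0.48 under library totals (edgeR, adjusted p = 2.57e-06). Against that shift of all genes, Fosl2, Jund and Atf3 moved by about the same amount. Jund ranged from -0.68 to -0.20 and Atf3 from -0.77 to -0.26 over the alternatives tried, never above 0. Fos, Jun, Junb, Batf, Batf2 and Batf3 were called in the same direction under each alternative, and the smallest size of change among them was -1.23 for Jun.

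**Figure D2:**
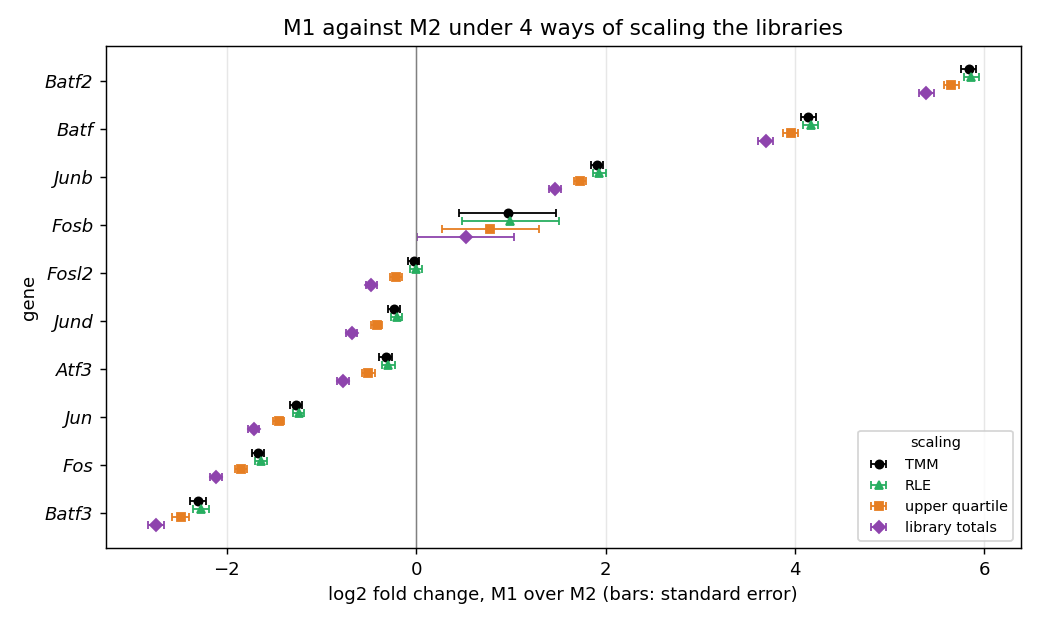
Log2 fold change of each gene, M1 over M2, under TMM and the other ways of scaling the 4 libraries, with the standard error as bars. Batf, Batf2 and Junb lie above 0 and Batf3, Fos and Jun below it under each scaling, while Fosl2 lies at -0.03 under TMM and -0.48 under library totals.

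The composition of the AP-1 transcript pool was compared next, in TPM, a level per union exon length relative to the library's own total. TPM takes no TMM factor, so TPM levels set between groups follow library totals; only shares and ratios within a library are free of scaling. The 10 genes summed to 2266 and 2243 TPM in M1, against 2624 and 2608 TPM in M2. Divided by the TMM factors, an alternative chosen after seeing the data, the sums were 2677 and 2590 in M1, against 2245 and 2235 in M2, so the direction of the sum turned with the scaling. JUN transcripts made up 42.1% and 44.0% of that sum in M1, against 35.0% and 34.8% in M2. BATF transcripts made up 19.1% and 19.6% in M1, against 4.25% and 4.15% in M2. FOS transcripts made up 3.17% and 3.21% in M1, against 8.77% and 8.78% in M2, and Atf3 made up 35.6% and 33.1% in M1, against 52.0% and 52.3% in M2. JUN transcripts stood at 13.26 and 13.72 times the FOS transcripts in M1, against 3.985 and 3.961 times in M2; by the longest coding length the ratios were 5.176 and 5.595 in M1, against 2.455 and 2.451 in M2. By each of the 3 lengths tried, Atf3 with the JUN genes made up most of the pool in both groups.

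Inside the JUN share the genes traded places. All shares depend on the level of Jund, which is uncertain because its counts may omit shared bases. Junb was 27.7% and 28.8% of the pool in M1, against 9.04% and 9.21% in M2. Jun was 2.979% and 3.145% in M1, against 8.93% and 8.97% in M2, and Jund 11.45% and 12.08% in M1, against 16.99% and 16.6% in M2. These shares carry no test of their own; in each case the libraries of a group lay close together and apart from the other group.

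**Figure D3:**
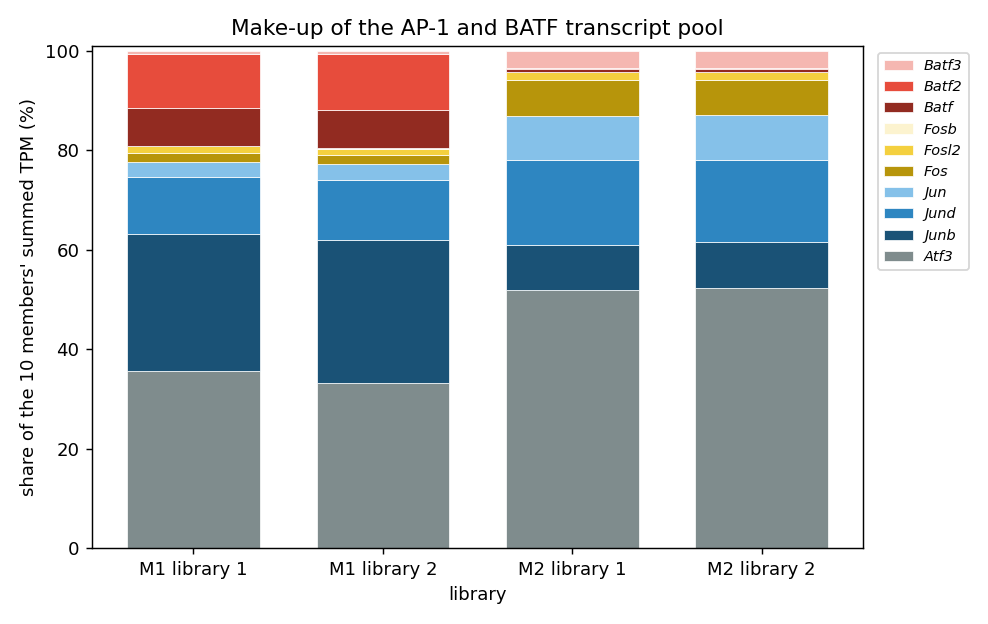
Stacked bars of each gene's share of the summed TPM of the 10 genes, 1 bar per library, M1 bars left of M2 bars. The Junb, Batf and Batf2 blocks are taller in M1 (Junb 27.7% and 28.8%), and the Atf3, Jund, Jun, Fos and Batf3 blocks taller in M2 (Atf3 52.0% and 52.3%).

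Ordered by TPM, M1 libraries ran from Atf3 (807 and 743 TPM) through Junb (627 and 646), Jund (259 and 271), Batf2 (248 and 253), Batf (172 and 175), Jun (67.5 and 70.5), Fos (40.6 and 42.8), Fosl2 (31.2 and 29.0) and Batf3 (13.3 and 12.5) to Fosb (0.192 and 0.245). M2 libraries ran from Atf3 (1364 and 1364 TPM) through Jund (446 and 433), Junb (237 and 240), Jun (234 and 234), Fos (187 and 186), Batf3 (91.2 and 88.3), Fosl2 (43.4 and 43.0), Batf (14.11 and 13.65) and Batf2 (6.18 and 6.18) to Fosb (0.058 and 0.222). No neighbours overlapped in either order, but Jund with Batf2 in M1, and Junb with Jun in M2, lay within a few percent of each other. The order depended on the length used, and the place of Jund is uncertain because its counts may omit shared bases. With the longest transcript length, Batf2 stood above Jund in M1. With the longest coding length, 6 of 10 ranks moved in M1 and 5 in M2: Fosl2 then stood at rank 6 in M1, above Jun at 7 and Fos at 8, and Jun stood at rank 2 in M2.

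Among 15 other AP-1, ATF and CREB genes, 12 were higher in M1, 1 was lower and 2 were not called under TMM. Their median log2 fold change was 0.50, and under library totals 7 were higher and 7 lower. Beside the counts of this list and of those below, 37.5% of all tested genes were called higher in M1 and 39.7% lower under TMM. Beside the counts under library totals, 3343 of the 14656 tested genes were called higher in M1 and 8570 lower with that scaling. Jdp2, which encodes a JUN-dimerizing repressor, averaged 216 ± 4.5 CPM in M1 and 14.2 ± 0.62 CPM in M2 (SD, n = 2 each), a log2 fold change of 3.92. Crem, a gene of the CREB family with activator and repressor forms, averaged 137 CPM in M1 and 9.55 CPM in M2 (log2 fold change 3.85). Fosl1, the FOS gene for FRA1, had 11.0 and 11.1 CPM in M1, against 2.87 and 2.78 CPM in M2 (log2 fold change 1.97 ± 0.12; edgeR, adjusted p = 1.01e-09). So Fosl1 was higher in M1 where Fos was lower. Atf5, an ATF gene of stress responses, was the called exception, at 65.6 CPM in M1 and 203 CPM in M2 (log2 fold change -1.63).

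**Figure D4:**
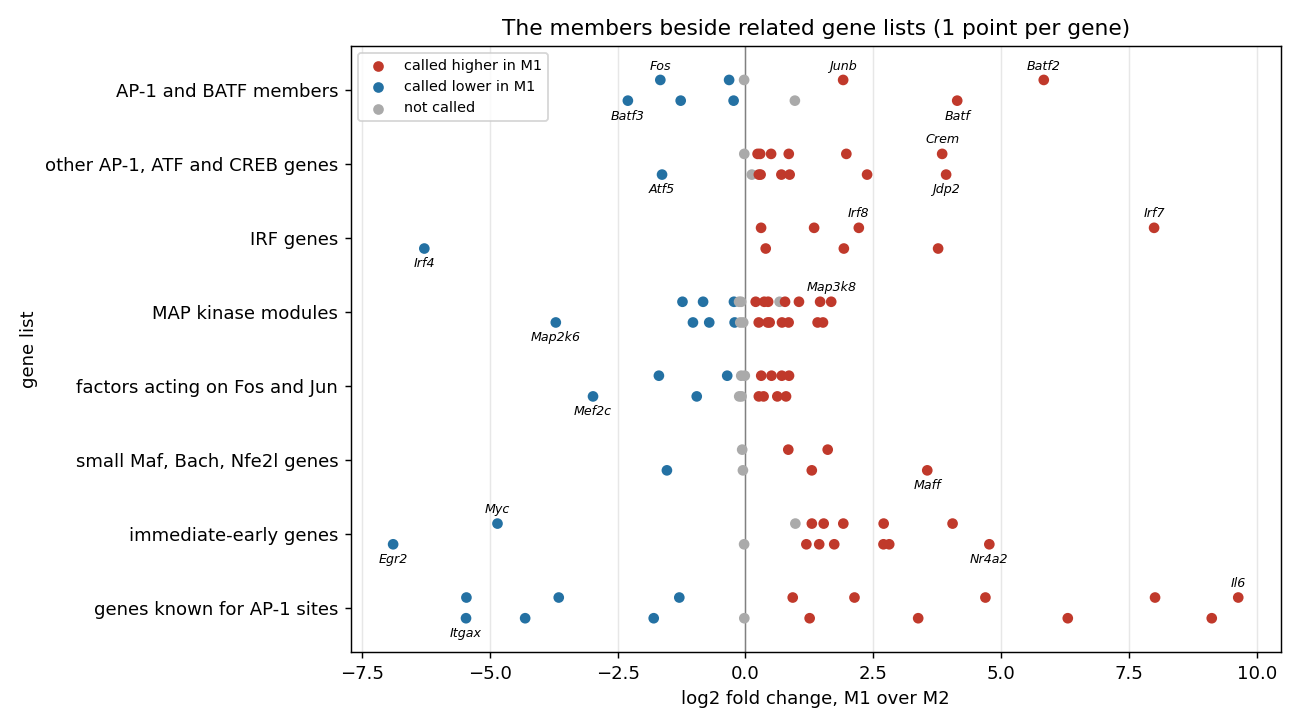
Log2 fold change, M1 over M2, of every gene in the AP-1 and BATF group and in 7 related lists, 1 point per gene, coloured by call. The IRF list runs from Irf4 at -6.28 to Irf7 at 7.99, wider than the 10 genes, which run from Batf3 at -2.30 to Batf2 at 5.83.

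The IRF family includes proteins that bind beside BATF and JUN, and 8 of its genes were listed, whether or not such binding is known. These 8 were also called in both directions, 7 higher in M1 and 1 lower, with a median log2 fold change of 1.63. Under library totals 5 were higher and 1 lower. Irf1, the interferon gamma-induced IRF, had 1266 and 1305 CPM in M1, against 98.0 and 90.8 CPM in M2 (log2 fold change 3.77). Irf7, the amplifier of type I interferon responses, had 2828 and 2397 CPM in M1, against 10.6 and 9.98 CPM in M2 (log2 fold change 7.99). Irf8, a lineage factor of macrophages and cDC1, had 710 and 837 CPM in M1, against 164 and 168 CPM in M2 (log2 fold change 2.22 ± 0.08). Irf4, an IL-4-induced IRF and partner of BATF in T cells, had 0.446 and 0.447 CPM in M1, against 34.7 and 35.3 CPM in M2. Irf4 was 77.8-fold lower in M1 (log2 fold change -6.28 ± 0.15; edgeR, adjusted p = 5.5e-15). With 2 groups, each called IRF gene lies on the side of some BATF gene, so these values cannot show which of them act together. Pairing of the proteins was not measured.

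Of 26 genes of the MAP kinase modules that act on AP-1 proteins and promoters, 14 were higher in M1, 7 lower and 5 not called, with a median log2 fold change of 0.31; under library totals 8 were higher and 13 lower. Map3k8, the kinase that links LPS receptors to ERK, averaged 77.0 CPM in M1 and 24.1 CPM in M2 (log2 fold change 1.68), and Map2k1, an ERK-activating kinase, 366 CPM in M1 and 128 CPM in M2 (1.52). Map2k6, a p38-activating kinase, had 8 and 1 counts in M1, against 69 and 104 in M2 (log2 fold change -3.71 ± 0.41); the value was -5.65 without M1 replicate 1 and -3.00 without M1 replicate 2. Map3k1, a kinase above JNK, averaged 38.8 CPM in M1 and 79.3 CPM in M2 (log2 fold change -1.03). RNA levels of these kinases say nothing of their activity.

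Of 16 genes whose products act on the Fos and Jun promoters or proteins, 8 were higher in M1, 4 lower and 4 not called, with a median log2 fold change of 0.12; under library totals 4 were higher and 8 lower, and without M1 replicate 1 the lower count under TMM was 7. Mef2c, a factor that binds the Jun promoter, averaged 6.30 CPM in M1 and 49.8 CPM in M2 (log2 fold change -2.98). Rps6ka3, a kinase downstream of ERK, averaged 73.4 ± 12.2 CPM in M1 and 238 ± 5.2 CPM in M2 (SD, n = 2 each; log2 fold change -1.69). Cop1, a ubiquitin ligase for JUN, averaged 119 CPM in M1 and 68.7 CPM in M2 (log2 fold change 0.79), and Rps6ka5, a nuclear kinase of histone H3 and CREB, 7.77 CPM in M1 and 4.34 CPM in M2 (0.85). Mef2c and Rps6ka3 were lower in M1, as Fos and Jun were, while Cop1, Rps6ka5 and others of the 8 were higher. The part of these genes in the Fos and Jun differences was not tested.

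Other immediate-early genes, induced like Fos within minutes of many stimuli, were 11 of 15 higher in M1, 2 lower and 2 not called, with a median log2 fold change of 1.53. Under library totals 11 were higher and 3 lower. Nr4a2, an orphan nuclear receptor, averaged 35.2 CPM in M1 and 1.26 CPM in M2 (log2 fold change 4.77). Its relative Nr4a3 averaged 9.04 CPM in M1 and 0.512 CPM in M2 (log2 fold change 4.05). Leaving out each library gave Nr4a3 log2 fold changes from 3.72 to 4.65. Egr2, a zinc finger factor that IL-4 induces in macrophages, had 1.71 and 1.99 CPM in M1, against 222 and 217 CPM in M2. Egr2 was 119-fold lower in M1 (log2 fold change -6.89 ± 0.10), and Myc, a growth regulator, had 1.85 and 1.42 CPM in M1, against 46.5 and 49.1 CPM in M2 (log2 fold change -4.85). Junb and Fos therefore stood on opposite sides, Junb with the 11 that were higher in M1 and Fos with Egr2 and Myc.

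Genes known to carry AP-1 sites did not move one way. Of 16 such genes, 9 were higher in M1, 6 lower and 1 not called, where 37.5% of all tested genes were higher and 39.7% lower. Their median log2 fold change was 1.09, and the counts were 9 and 6 under library totals as well. Il6, a cytokine, averaged 3863 ± 381 CPM in M1 and 4.87 ± 0.33 CPM in M2 (SD, n = 2 each; log2 fold change 9.64), and Ptgs2, which makes prostaglandin precursors, 16957 CPM in M1 and 30.5 CPM in M2 (9.12). Itgax, the integrin chain CD11c, averaged 17.6 CPM in M1 and 776 CPM in M2 (log2 fold change -5.47), and Mmp12, the macrophage elastase, 29.9 CPM in M1 and 1315 CPM in M2 (-5.46). Reporting a gene as an AP-1 target is textbook knowledge here, and no binding was measured.

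Some members are neighbours in the genome, and such neighbours moved either in opposite directions or in the same direction. On chromosome 12, Jdp2 starts 125.1 kb and Batf 212.8 kb beyond the start of Fos, on the same strand, and no other gene of the table starts between them. Fos was lower in M1, and Jdp2 and Batf were higher. On chromosome 1, Atf3 ends 72.45 kb beyond the start of Batf3 on the opposite strand, and both were lower in M1. The genes between them were Fam71a, near 1 CPM in both groups and not called, and Gm38161, with 0 counts in all 4 libraries.

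Some members share bases with a gene on the other strand, and the library kit does not mark strand, so reads there cannot be assigned with certainty. Jun shares 232 exonic bases with Junos, which had 0.857 and 1.02 CPM in M1, against 2.62 and 3.15 CPM in M2, far under Jun. Junb shares 173 exonic bases with Prdx2, at 177 and 171 CPM in M1, against 123 and 131 CPM in M2. Batf2 shares 51 exonic bases with Arl2, at 25.0 and 26.0 CPM in M1, against 32.0 and 33.8 CPM in M2, a change opposite to that of Batf2. Jund shares 877 of its 1668 exonic bases with Gm11175, which had 0 counts in all libraries, so counts of Jund may omit that stretch and its level is uncertain.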

How the data were processed

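Poly(A) RNA of 4 BMDM libraries was sequenced as paired 150-base reads, per the labels' protocols. The deposited count table holds raw counts per Ensembl gene and library. The build GRCm38, Subread 1.5.2 with featureCounts, STAR 2.5.2b, DESeq2 and Trimmomatic 0.36 are listed, without roles, per the submitters' processing notes; parameter settings were not given in the sources used here. A second deposited table, of the authors' own comparison, gives a mean normalized signal, a log2 fold change, a test score and p-values; its rows were matched by base mean within a relative tolerance of 1e-06, since its printed symbols are in part those of other genes.

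Genes were kept by edgeR's filterByExpr (at least 10 counts, 15 in total). Libraries were scaled by TMM and M1 was set over M2 with edgeR 4.0.16's robust quasi-likelihood test (R 4.3.3), without covariates, since the labels give no pairing; p-values were Benjamini-Hochberg adjusted over all tested genes. The standard error is the size of the log2 fold change over the square root of F. The fit was tested on simulated data. Library totals are in the report; the called members had at least 128 counts in each library. TPM used union exon lengths of GENCODE vM21. Symbols were found for 49056 of 49315 IDs. Alternatives were other scalings, other filters, DESeq2 1.42.0, limma 3.58.1 (voom), non-robust estimation, a test beyond 2-fold and leaving out each library.

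The members and lists were chosen with earlier results of these data known. Named were all members, Fosl1, Jdp2, Irf4, Irf8 and Lyz2. From each list, the 2 called genes that changed most in each direction (mean 1 CPM or more) were named too. Bach2, which lay under that level, was named outside this rule. Markers, neighbours and overlapping genes were named after their values were seen.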

Additional observations from a re-analysis of the deposited data

How the results depend on the processing

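Under each alternative that could be run, Batf, Batf2, Junb, Fos, Jun and Batf3 kept their direction and passed the threshold. Of the members' other values, Fosl2 passed it under upper-quartile scaling (log2 fold change -0.21) and under library totals (-0.48), as all genes shifted the same way by construction. In the test beyond 2-fold, Jund (-0.23) and Atf3 (-0.32) did not pass (adjusted p = 1 for both), so 3 members were lower in place of 5. That test also left 2163 of 5495 genes higher and 2677 of 5817 lower over the whole table, and 35 of 65 genes higher and 13 of 22 lower over the 7 lists, by its construction. With library totals, 3343 genes were higher and 8570 lower over the whole table, and 48 list genes were higher and 41 lower. Leaving out each library gave Fosb log2 fold changes from 0.43 to 2.33, with 3 to 4 members higher and 5 lower; the lone library left in a group is assumed there to vary like the other group. With a CPM of at least 5 in 2 libraries Fosb was not tested. No paired analysis was possible because replicate numbers only follow the order of the libraries. The 8 called members had at least 128 counts in each library.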

Other observations

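In the authors' deposited table, the base means of 6 of the 10 members each matched 1 row. The log2 fold changes in the authors' deposited table were 4.14 for Batf, 5.83 for Batf2, -2.31 for Batf3, -1.27 for Jun, 1.91 for Junb and -1.67 for Fos. Of these 6 rows of the authors' deposited table, 3 print the member's own symbol (Jun, Junb and Batf3) and 3 print another: the Fos row reads Tmed10, the Batf row Jdp2 and the Batf2 row Arl2. No row matched the base mean of Fosb, Fosl2, Jund or Atf3, so no values of that table are given for them.

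The small Maf, Bach and Nfe2l genes, bZIP relatives that bind antioxidant and Maf elements, were 4 of 7 higher in M1, 1 lower and 2 not called, with a median log2 fold change of 0.84; under library totals 4 were higher and 3 lower. The lower gene was Bach2, at 0.215 CPM in M1 and 0.635 CPM in M2; the lower count was 0 without M1 replicate 2, without M2 replicate 2, under DESeq2 and under the CPM filter, and 2 without M1 replicate 1. Maff averaged 75.4 CPM in M1 and 6.38 CPM in M2 (log2 fold change 3.56), and Mafk 108 CPM in M1 and 35.6 CPM in M2 (1.61). Both encode small Maf proteins, which lack an activation domain as BATF proteins do. The 6 neutrophil markers summed to 8.51 to 9.80 CPM in M1 and 5.58 to 7.92 CPM in M2, and the 5 mast cell and basophil markers to 0.122 to 0.137 CPM in M1 and 0.479 to 0.651 CPM in M2, with 1 of the 5 at 0 in all libraries.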
